A study of Homo sapiens with 4 samples.

Results

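The genes described are those of the cytosolic ribosomal proteins and their paralogs: every protein-coding gene in the deposited tables whose symbol begins with RPL or RPS, without the RPS6 kinases, symbols with a hyphen, RPS19BP1 and the Y-linked copies. This rule took 85 of the 51103 genes listed. They comprise 77 canonical genes, 46 of the large (60S) and 31 of the small (40S) subunit, the 6 paralogs RPL22L1, RPS27L, RPL26L1, RPL36AL, RPL3L and RPL39L, and 2 further paralogs, RPL7L1 and RPL10L. Ribosomal protein genes with other names, such as FAU and RACK1, fall outside the rule and are given separately. The study sequenced poly(A) RNA of AGS, an established cell line from a human gastric cancer, to screen for genes that respond to recombinant human FGF2, a fibroblast growth factor. One group is labelled FGF2 (20 ng/mL, harvested after 24 h) and the other NC, an abbreviation the labels do not spell out. Both groups are AGS cells grown in DMEM with fetal bovine serum, and the labels carry 1 treatment text for both, which speaks of FGF2, so the handling of the NC cells is unknown. Each group has 2 libraries of 1 cell line.

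Cytosolic ribosomes are assembled, beginning in the nucleolus, from ribosomal RNA and a fixed set of proteins that are needed in near-equal amounts. Most of their mRNAs begin with a terminal oligopyrimidine (TOP) tract, a C at the cap followed by an uninterrupted run of pyrimidines, through which growth factor and mTOR signalling control their translation. A few ribosomal proteins have paralogs, encoded elsewhere in the genome, that can take the place of the parent protein in some ribosomes or tissues.

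The start sites of several members are shown first because the TOP tract is the feature the family shares. Each window runs 15 bases either side of the annotated RefSeq start (GRCh38.p14), 5′ to 3′ on the transcribed strand. Capitals mark the pyrimidine run that met the search rule: a C followed by at least 4 of C or T, the C lying within 5 bases of the start. The windows show RPL34 and RPS25, canonical genes higher in the FGF2 group, RPS6, 3 parent genes with their paralogs, and RPL7L1.
RPL34, chr4:108620561-108620590, plus strand: aaaggcttttttCTTCCTCTTCCggggacg
RPS25, chr11:119018329-119018358, minus strand: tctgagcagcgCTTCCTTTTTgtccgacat
RPS6, chr9:19380222-19380251, minus strand: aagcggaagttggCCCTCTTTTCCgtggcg
RPL22, chr1:6199581-6199610, minus strand: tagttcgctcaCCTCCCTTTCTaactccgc
RPL22L1, chr3:170870181-170870210, minus strand: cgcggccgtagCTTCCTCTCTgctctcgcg
RPS27, chr1:153990747-153990776, plus strand: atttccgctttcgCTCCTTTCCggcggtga
RPS27L, chr15:63157463-63157492, minus strand: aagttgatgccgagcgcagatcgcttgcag
RPL36A, chrX:101390996-101391025, plus strand: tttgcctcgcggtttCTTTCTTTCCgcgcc
RPL36AL, chr14:49620612-49620641, minus strand: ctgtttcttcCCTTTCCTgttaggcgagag
RPL7L1, chr6:42879601-42879630, plus strand: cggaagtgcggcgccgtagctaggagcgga
RPL22L1 and RPL36AL carry a run of this kind, as their parents do, whereas none was found in these windows of RPS27L and RPL7L1. Of the 62 canonical genes with a promoter entry, 53 (85.5%) had such a run, compared with 6886 of 27305 genes in the promoter table (25.2%). Among the 6 paralogs, 2 of 4 with an entry had one.

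The libraries of a group were not separate samples. Library 1 exceeded library 2 at only 2 of 22043 genes with counts in the FGF2 group and 2 of 22485 in the NC group, and at none of the 85 members, so library 1 was treated as contained in library 2. Total counts were 13790335 and 27598608 in FGF2 libraries 1 and 2, and 14073340 and 27325697 in NC libraries 1 and 2. Each group was therefore treated as 1 sample, no test between groups was possible, and no p-value is given. Counts are given below for library 1 and then library 2 of a group, and "with FGF2" stands for the FGF2 libraries. Fold changes compare library 2 of each group after TMM scaling, with a 95% interval that covers counting error only. As the only available repeat, the fold change was also taken from library 1 and from the remaining reads (library 2 less library 1), which share no reads. The term called is used for a gene at which each of these read sets from FGF2 cells lay above (called higher) or below (called lower) each of those from NC cells, by at least 1.2-fold. Library 1 and the remaining reads come from 1 group's cells, and whether from 1 culture is not given. Their agreement says nothing about variation between cultures.

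In NC library 2 the canonical genes spanned 0.534 to 1150.5 FPKM, with a median of 189.8. RPS2, which lines the mRNA entry side of the small subunit, was highest at 1150.5 FPKM in NC library 2 and 1188.4 in FGF2 library 2. RPL7A followed at 989.8 and 1015.6 FPKM, RPL8 at 764 and 797.5, RPS12 at 635.6 and 694.2, and RPL35 at 624.9 and 733 in the NC and FGF2 libraries in turn. All 5 were listed at a higher FPKM in the FGF2 library. Among the 5 lowest canonical genes in NC library 2 were RPL17 at 0.534 FPKM, RPS10 at 1.74, RPL36A at 2.84 and RPL26 at 6.51. These levels are per kilobase of the merged exons of a gene, whose median length was 3109 bases for the canonical genes, compared with 705 for 1 of their mRNAs, so the levels are understated by an amount that differs between genes.

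All 5 of these low genes share over 50% of their mRNA with exons of another annotated gene. The overlap was 91.0% of the mRNA for RPL17, with the read-through gene RPL17-C18orf32, 84.0% for RPS10, with RPS10-NUDT3, 77.6% for RPL36A, with RPL36A-HNRNPH2, and 65.3% for RPL26. No other canonical gene exceeded 50%. The other 72 ran from 6.59 to 1150.5 FPKM in NC library 2, with a median of 200.1, so the groups did not overlap. The 3 read-through genes were themselves listed at 0 counts in all 4 libraries. Across the 77 genes the overlap and the log2 FPKM were related with r = -0.75 (Pearson) and rho = -0.43 (Spearman), and r was -0.37 over the 72 genes without those 5. These are descriptions across genes of 1 library, and genes are not independent replicates. Whether the counts of these genes were lost to the overlap was not tested.

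**Figure D1:**
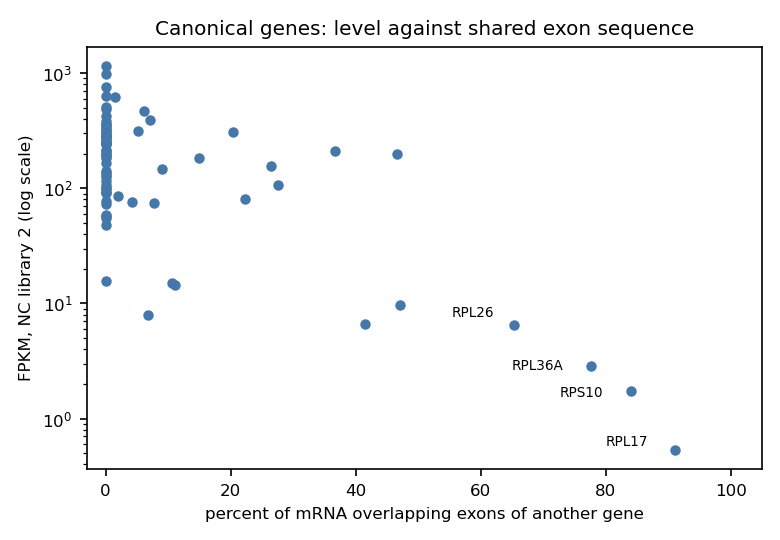
Each point is 1 of 76 canonical ribosomal protein genes, with the percent of its mRNA that overlaps exons of another annotated gene on the horizontal axis and its FPKM in NC library 2 on a log vertical axis. The 4 named genes, all above 50% overlap, lie between 0.534 and 6.51 FPKM, below the other 72.

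The canonical genes were mostly slightly higher in the FGF2 group, with a fold change of similar size in both subunits. The median log2 fold change was 0.25 (1.19-fold), with an interquartile range of 0.19 to 0.31, compared with a median of -0.00 over all 15030 genes kept by the count filter. All 77 were above 0 with TMM scaling and 72 with total-count scaling, the TMM values running from 0.02 for RPL36A to 1.32 for RPL17. The median was 0.26 for the 46 genes of the large subunit and 0.25 for the 31 of the small subunit. Of the 77, 8 (10.4%) were called higher and 0 lower, where 12.1% of all genes were called higher and 16.3% lower. The share called higher was thus close to that of all genes. Both FGF2 read sets lay above both NC read sets, by any amount, at 65 of the 77 (84.4%) and below at 0, compared with 32.1% above and 32.0% below among all genes. Canonical genes are abundant, so they were also set beside the 3368 genes that averaged 1000 counts or more over the read sets. Of these, 54.0% lay above and 23.7% below, 16.8% were called higher and 7.78% lower, and the median log2 fold change was 0.10. Of the 67 canonical genes of that abundance, 57 (85.1%) lay above, 4 (5.97%) were called higher and 0 lower, and the median was 0.25. At a bound of 1.1-fold, 30 of the 77 were called higher and 0 lower, where 19.8% and 22.4% of all genes were. At 1.5-fold 1 of the 77, RPL17, was called higher and 0 lower, where 3.90% and 7.90% were. With scaling by total counts alone the median of all genes moved by -0.09 and the canonical median became 0.17. In RNA from whole cultures, a change in the share of cells and a change in RNA per cell cannot be told apart.

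The size of the difference depended on which reads were used. From library 1 the canonical median was 0.31, and from the remaining reads it was 0.16. The fold change was larger from library 1 at 71 of the 77 genes. RPL39, a small protein of the exit tunnel, had 5088 counts in FGF2 library 1 of 7843 in library 2, and 3669 of 6751 in the NC libraries. Its log2 fold change was 0.60 from library 1 and -0.14 from the remaining reads. RPS27, a zinc-finger protein of the small subunit, had 4472 of 7339 counts in FGF2 library 1 and 3212 of 6063 in NC library 1, and log2 fold changes of 0.60 and 0.03. For these genes the FGF2 and NC read sets overlapped. The difference between library 1 and the remaining reads went with coding length: across the 77 genes, the Spearman rho of coding length with the fold change was -0.50 from library 1 and 0.01 from the remaining reads. From library 2, the source of the main fold changes, rho was -0.41, so their order among genes carries this trend with length. Within the FGF2 group, the log2 ratio of library 1 to the remaining reads had a rho of -0.50 with coding length, and within the NC group -0.22. The 39 genes with a coding length of up to 459 bases had medians of 0.40 from library 1 and 0.17 from the remaining reads, while the 38 longer genes had 0.27 and 0.15. These correlations are across genes that share their libraries, and they are given without a p. The part of this in the difference between the groups was not tested.

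**Figure D2:**
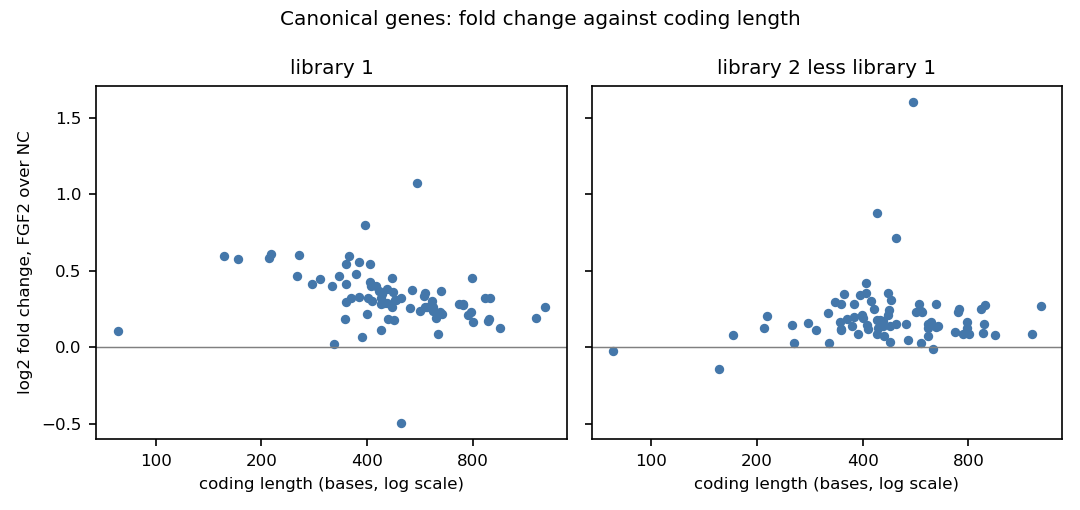
Points are the 77 canonical genes, with coding length in bases (log axis) and the log2 fold change of FGF2 over NC, from library 1 on the left and from library 2 less library 1 on the right. Fold changes are larger for short genes on the left (rho -0.50) and show no trend with length on the right (rho 0.01), apart from single genes with few counts.

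The canonical genes called higher included RPL17, RPL21, RPL23A, RPL32, RPL34, RPS15A and RPS25. RPL34, a protein of the large subunit, had 3081 and 5926 counts in FGF2 libraries 1 and 2, and 2224 and 4491 in the NC libraries. Its log2 fold change was 0.47 (95% counting interval 0.42 to 0.53), with 0.59 from library 1 and 0.35 from the remaining reads. RPL32 had 6624 and 12779 counts with FGF2 and 5360 and 10242 in the NC libraries, a log2 fold change of 0.39 (0.35 to 0.43). Neither of these genes shares 10% or more of its mRNA by exon overlap or by words of 100 bases, but with words of 50 bases 27.0% of RPL34 and 27.5% of RPL32 occur elsewhere. Annotated pseudogenes of RPL32 held 550 counts in NC library 2, or 5.37% of those of RPL32. In both, the FGF2 libraries were the higher at matched depth.

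RPL17, RPL21, RPL23A, RPS15A and RPS25 share at least 10% of their mRNA with another gene or locus, by exon overlap or by words of 100 bases, and their counts are uncertain. RPS25, a small subunit protein needed for translation from some viral internal ribosome entry sites, had 5897 and 10802 counts with FGF2 and 4375 and 8467 in the NC libraries. Its log2 fold change was 0.42 (0.38 to 0.46), and 36.6% of its mRNA lies over exons of neighbouring genes. RPL21 had 4703 and 9400 counts in the FGF2 libraries, 4139 and 7984 in the NC libraries, and the same log2 fold change of 0.31 from both read sets. For RPL21, 78.1% of the 100-base words of the mRNA occur elsewhere in the annotated transcripts. RPL23A, which forms part of the docking site for factors at the exit tunnel, had 748 and 1458 counts with FGF2 and 594 and 1157 in the NC libraries, a log2 fold change of 0.41 (0.29 to 0.52). RPL23A shares 17.0% of its words, and its annotated pseudogenes held a further 541 counts in FGF2 library 2 and 451 in NC library 2.

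Like RPL23A, the genes RPS15A and RPL17 had few counts. RPS15A had 1009 and 1726 counts with FGF2 and 631 and 1203 in the NC libraries, a log2 fold change of 0.59 (0.49 to 0.70). Its value was 0.80 from library 1 and 0.35 from the remaining reads. RPL17 had the highest canonical fold change but the fewest reads, with 43 and 86 counts with FGF2 and 22 and 36 in the NC libraries. The log2 fold change of RPL17 was 1.32 with a wide interval of 0.75 to 1.93. RPL26 and RPS10 also had few counts, and their values differed widely between the read sets. The part of low counts in this was not tested. RPL26 was among the 5 highest at 0.49, with 261 and 596 counts with FGF2 and 263 and 447 in the NC libraries, but its values were 0.11 from library 1 and 0.88 from the remaining reads. RPS10 had 48 and 110 counts with FGF2 and 74 and 112 in the NC libraries, and log2 fold changes of -0.49 and 0.72.

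The bound of 1.2-fold fell in a continuous range of values. On the log2 scale, where the bound is 0.26, the smallest gap between an FGF2 and an NC read set was 0.27 for RPS25, 0.28 for RPL21 and 0.29 for RPS15A, all just inside. Just outside were RPS23 and RPL5 at 0.25 and RPS7 at 0.24.

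The lowest fold changes were those of RPL36A, RPL13, RPL41, RPS10 and RPL22. RPL13 was among the genes with most counts, with 26457 and 52389 with FGF2 and 27197 and 53627 in the NC libraries, and a log2 fold change of 0.04 (0.02 to 0.06). RPL41, the shortest of the ribosomal proteins, had 6932 and 12457 counts in the FGF2 libraries, 7032 and 12718 in the NC libraries, and a log2 fold change of 0.04 (0.01 to 0.08). RPL36A had 158 and 297 counts with FGF2 and 170 and 308 in the NC libraries, a log2 fold change of 0.02. The read sets of the groups overlapped for all 3.

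Among genes with roles outside the ribosome body, RPL5 and RPL11 form a particle with 5S ribosomal RNA that binds MDM2 when ribosome assembly fails. RPL5 had 16011 and 32678 counts with FGF2 and 13976 and 27891 in the NC libraries, a log2 fold change of 0.30 (0.28 to 0.32). RPL11 had 11186 and 19945 with FGF2 and 9410 and 17985 in the NC libraries, a log2 fold change of 0.22. The read sets of the groups were apart for RPL5 and overlapped for RPL11, whose values were 0.37 from library 1 and 0.05 from the remaining reads. RPS6, the substrate of the S6 kinases, had 14007 and 26065 counts with FGF2 and 12610 and 22887 in the NC libraries, a log2 fold change of 0.26 with 0.28 and 0.25 from the read sets. The stalk proteins, which recruit the elongation factors, were at 0.10 for RPLP0, 0.18 for RPLP1 and 0.21 for RPLP2 on the log2 scale, below the canonical median. For RPS6 and the 3 stalk genes both FGF2 read sets lay above both NC read sets, and none met the 1.2-fold bound.

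**Figure D3:**
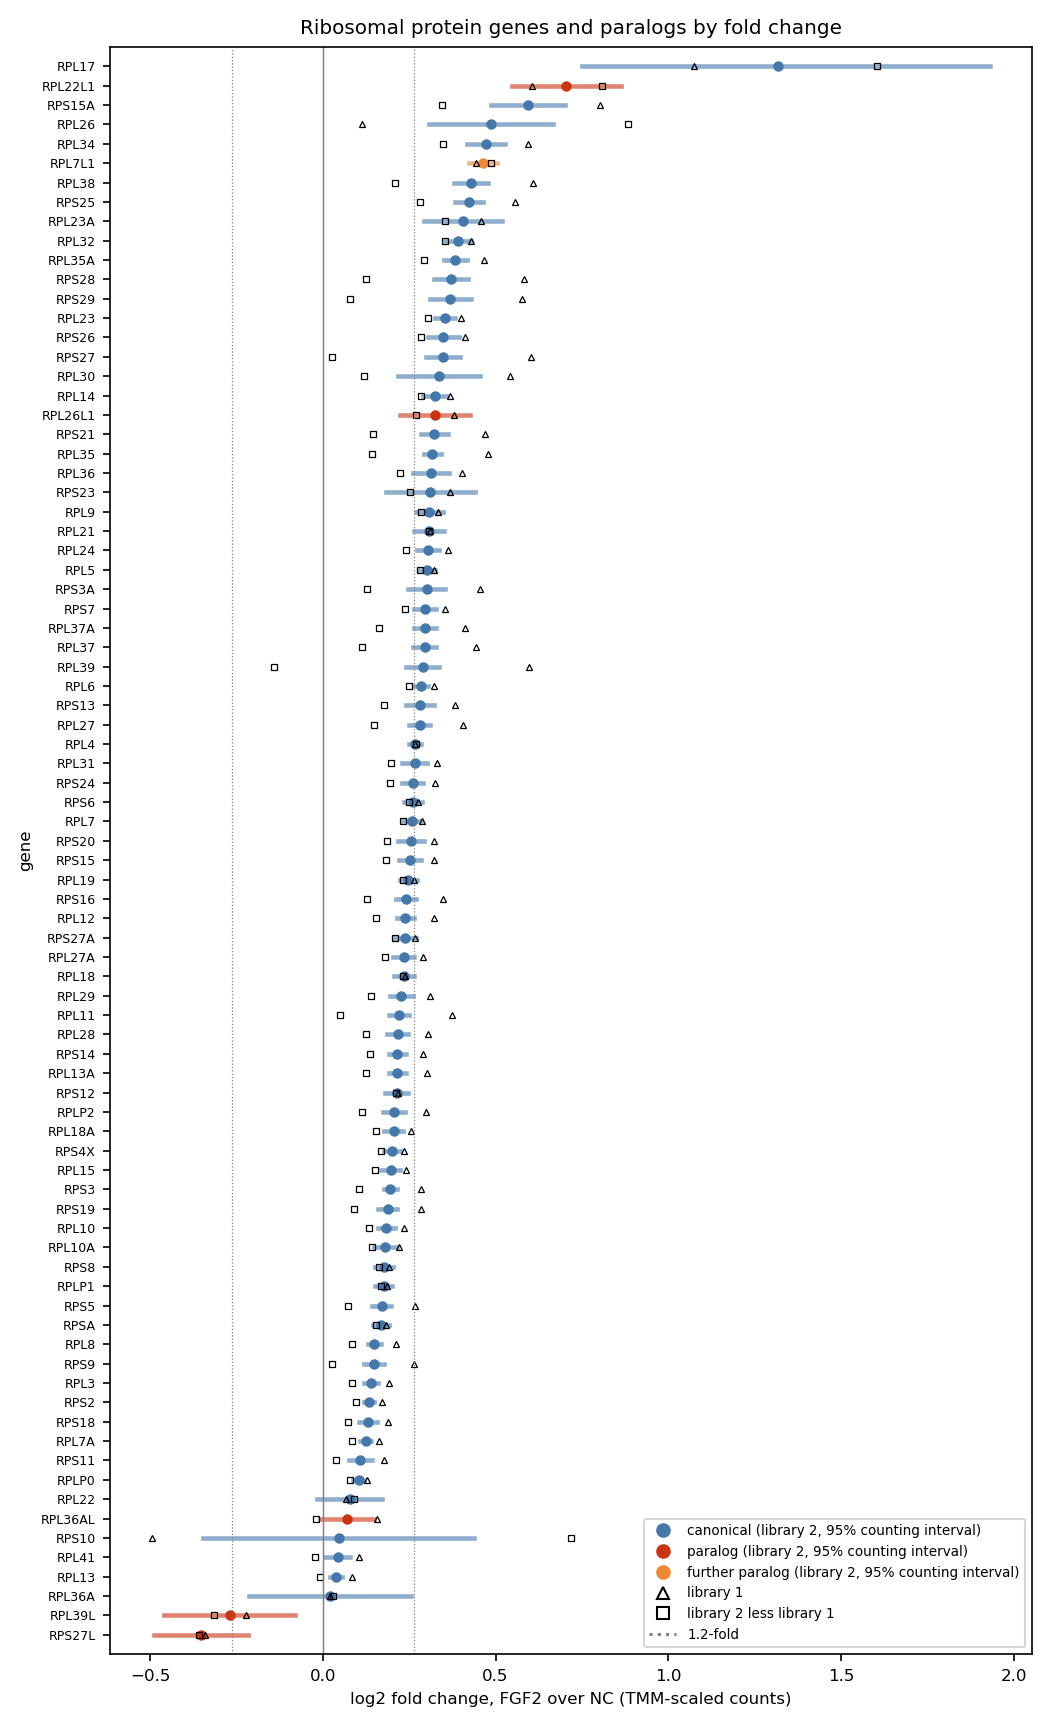
Each line is 1 of 82 members kept by the count filter, ordered by log2 fold change of FGF2 over NC from library 2 (filled points, with 95% counting intervals). Open triangles are values from library 1 and open squares from the remaining reads. With TMM scaling the canonical genes (blue) lie above 0, triangles mostly to the right of squares, while RPS27L and RPL39L are below 0 and RPL22L1 is next to the top.

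TOP runs, small nucleolar RNA genes and shared sequence went with small differences in the median fold change of the canonical genes. The median log2 fold change was 0.24 for the 53 genes with a TOP run at an annotated start and 0.28 for the 9 with an entry but no such run. It was 0.24 for the 28 genes that contain an annotated small nucleolar RNA gene and 0.26 for the 49 that do not. The 38 genes that share less than 10% of their mRNA by either of those measures had a median of 0.25, and the 39 that share more had 0.26. These medians differ by less than the canonical medians of the read sets, 0.31 and 0.16, differ from each other. Of the genes called higher, 6 of the 8 were in the group with shared sequence, where 6 of 39 were called, and 2 of 38 were called in the other. Genes with lower FPKM had larger fold changes: across the 77 genes r was -0.53 and rho -0.52, both measures being taken in part from NC library 2.

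The paralogs differed in direction. Of the 6, RPL22L1 was called higher and RPS27L lower, RPL26L1, RPL36AL and RPL39L met neither bound, and RPL3L did not pass the count filter. For all genes the rates were 12.1% higher and 16.3% lower. The median of the 5 kept by the filter was 0.07 on the log2 scale, with 0.16 from library 1 and -0.02 from the remaining reads. The counting of paralogs rests in part on the differences between their sequences and those of the parents, given below for the 5 kept by the filter. It also rests on sequence shared with other loci. Each parent gene shares at least 10% of its mRNA with another gene or locus, by exon overlap or by words of 100 bases. The share was 11.1% by exon overlap for RPL22 and 18.9% by words for RPL39. The parent counts, and the ratios to them, are therefore uncertain.

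RPL22L1, the paralog of the RNA-binding large subunit protein RPL22, lies at chr3:170864875-170870483 on the minus strand and RPL22 at chr1:6185020-6209389 on the minus strand (GRCh38). The coding sequences are 66.7% identical over the aligned bases. The last 202 aligned coding bases are shown, up to the stop codon, with the 59 differing bases in capitals.
RPL22L1: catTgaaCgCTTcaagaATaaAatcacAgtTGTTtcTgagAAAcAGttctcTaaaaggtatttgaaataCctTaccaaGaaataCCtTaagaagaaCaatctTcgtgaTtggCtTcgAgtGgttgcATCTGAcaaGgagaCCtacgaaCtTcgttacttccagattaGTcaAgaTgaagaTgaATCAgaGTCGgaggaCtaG
RPL22: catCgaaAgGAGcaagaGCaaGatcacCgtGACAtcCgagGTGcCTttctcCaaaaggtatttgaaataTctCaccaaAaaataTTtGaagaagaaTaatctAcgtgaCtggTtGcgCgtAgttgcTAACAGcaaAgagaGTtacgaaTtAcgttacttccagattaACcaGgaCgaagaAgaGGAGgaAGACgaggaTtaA
The longest word common to the coding sequences is 17 bases. RPL22L1 had 408 and 842 counts in FGF2 libraries 1 and 2, and 292 and 543 in the NC libraries. Its log2 fold change was 0.70 (0.55 to 0.86), with 0.61 from library 1 and 0.81 from the remaining reads, so all FGF2 values lay above the NC values. RPL22 had 913 and 1853 counts with FGF2 and 951 and 1846 in the NC libraries, a log2 fold change of 0.08 (-0.02 to 0.17). Per 100 counts of RPL22 there were 44.7 and 45.4 of RPL22L1 with FGF2 and 30.7 and 29.4 in the NC libraries. On the per-length scale of library 2, RPL22L1 stood at 0.915 of the FPKM of RPL22 in the FGF2 group and 0.592 in the NC group. That scale uses merged exons, which have 2326 bases for RPL22L1 and 4682 for RPL22, while the mRNAs have 2190 and 2078. Scaled to mRNA length, both ratios would be smaller. RPL22L1 was the only paralog also called at a bound of 1.5-fold, which 3.90% of all genes met in the higher direction.

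RPS27L, a p53-inducible paralog of RPS27, lies at chr15:63125872-63158021 on the minus strand and RPS27 at chr1:153990755-153992155 on the plus strand. The coding sequences have the same length of 255 bases and are 78.0% identical, as the whole coding sequences show, with the 56 differing bases in capitals.
RPS27L: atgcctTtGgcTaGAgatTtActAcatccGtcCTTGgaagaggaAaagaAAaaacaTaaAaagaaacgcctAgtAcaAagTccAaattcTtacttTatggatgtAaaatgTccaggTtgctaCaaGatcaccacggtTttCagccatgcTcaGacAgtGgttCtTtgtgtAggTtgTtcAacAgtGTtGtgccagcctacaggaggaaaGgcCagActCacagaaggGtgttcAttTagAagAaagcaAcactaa
RPS27: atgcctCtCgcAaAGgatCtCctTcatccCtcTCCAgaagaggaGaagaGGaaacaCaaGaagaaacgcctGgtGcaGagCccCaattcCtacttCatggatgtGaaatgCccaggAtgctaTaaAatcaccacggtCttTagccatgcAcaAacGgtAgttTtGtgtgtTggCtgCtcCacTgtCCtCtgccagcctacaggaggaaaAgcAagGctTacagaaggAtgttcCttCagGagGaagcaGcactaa
The longest common word is 20 bases. RPS27L had 392 and 771 counts with FGF2 and 542 and 1035 in the NC libraries. Its log2 fold change was -0.35 (-0.49 to -0.22), with -0.34 from library 1 and -0.36 from the remaining reads. With TMM scaling it was the only member called lower. RPS27 had a log2 fold change of 0.35 (0.30 to 0.40), and the ratio of RPS27L to 100 counts of RPS27 was 8.77 and 10.5 with FGF2 and 16.9 and 17.1 in the NC libraries. Since RPS27 differed between library 1 and the remaining reads, the FGF2 ratio did too, at 8.77 and 13.2, both below the NC values. Over 50% of the 100-base words of RPS27 occur in transcripts of other loci, so its counts and this ratio are uncertain.

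RPL39L, a paralog of RPL39 best known from male germ cells, lies at chr3:187120948-187180908 on the minus strand, and RPL39 at chrX:119786504-119791643 on the minus strand. This is the most alike of the 8 pairs, with 94.9% identity and 8 differing bases in 156, shown in capitals.
RPL39L: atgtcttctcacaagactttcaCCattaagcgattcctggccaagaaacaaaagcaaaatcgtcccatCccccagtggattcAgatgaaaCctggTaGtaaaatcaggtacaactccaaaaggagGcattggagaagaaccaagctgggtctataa
RPL39: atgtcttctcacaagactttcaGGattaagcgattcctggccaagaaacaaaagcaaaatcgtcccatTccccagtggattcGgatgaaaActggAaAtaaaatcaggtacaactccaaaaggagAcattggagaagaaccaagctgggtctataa
The longest common word of this pair is 44 bases. RPL39L had 209 and 415 counts with FGF2 and 266 and 526 in the NC libraries, a log2 fold change of -0.27 (-0.46 to -0.08). The values were -0.22 from library 1 and -0.32 from the remaining reads. Both FGF2 read sets lay below both NC read sets, but not by 1.2-fold. With scaling by total counts alone RPL39L was called lower along with RPS27L. Per 100 counts of RPL39 there were 4.11 and 5.29 of RPL39L with FGF2 and 7.25 and 7.79 in the NC libraries. In the remaining reads the ratio was 7.48 for FGF2 and 8.44 for NC, so the ratios of the groups overlapped.

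RPL26L1 and RPL36AL had more counts than the genes annotated as their parents. RPL26L1 had 970 and 1751 counts with FGF2 and 813 and 1470 in the NC libraries, a log2 fold change of 0.32 (0.22 to 0.43), with 0.38 from library 1 and 0.27 from the remaining reads. Its read sets did not overlap between groups, but the gap was under 1.2-fold. RPL36AL, the autosomal copy of the X-linked RPL36A, had 1372 and 2604 counts with FGF2 and 1341 and 2608 in the NC libraries, a log2 fold change of 0.07 (-0.01 to 0.15). Per length, RPL26L1 stood at 7.1 times the FPKM of RPL26 and RPL36AL at 45 times that of RPL36A in NC library 2. These FPKM ratios depend on the merged exon lengths as well as on the counts. The merged exons and the mRNA of RPL36AL both have 746 bases, while those of RPL36A have 3964 and 429. For RPL26L1 they have 1164 and 679 bases, and for RPL26 2513 and 528. Scaled to mRNA length, both ratios would be smaller. Both parents are among the 5 canonical genes whose mRNA mostly overlaps another gene, so the ratios rest on uncertain parent counts. The counts of RPL26L1 are uncertain too, since 22.9% of its 100-base words occur in transcripts of other loci. RPL36AL and RPL36A have a coding sequence identity of 90.0% and a longest common word of 63 bases, and RPL26L1 and RPL26 of 84.2% and 20 bases.

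RPL3L, the paralog of RPL3 in heart and skeletal muscle, had 2 and 5 counts with FGF2 and 5 and 12 in the NC libraries, too few to pass the filter. RPL3 itself had 20830 and 40480 counts with FGF2 and 19875 and 38647 in the NC libraries, a log2 fold change of 0.14. RPL10L, an intronless testis copy of RPL10, was listed at 0 in all 4 libraries, a count that allows up to 3 in each. RPL10 had 14371 and 28185 counts with FGF2 and 13328 and 26099 in the NC libraries, a log2 fold change of 0.18. RPL7L1, a relative of RPL7 found in assembling large subunits, had 5991 and 12023 counts with FGF2 and 4807 and 9167 in the NC libraries. The log2 fold change of RPL7L1 was 0.46 (0.42 to 0.50), with 0.44 from library 1 and 0.49 from the remaining reads, and it was called higher. RPL7 had 12254 and 23482 counts with FGF2 and 10956 and 20639 in the NC libraries, a log2 fold change of 0.26. Per 100 counts of RPL7 there were 48.9 and 51.2 of RPL7L1 with FGF2 and 43.9 and 44.4 in the NC libraries. This ratio is uncertain, since 60.5% of the 100-base words of RPL7 occur in transcripts of other loci.

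**Figure D4:**
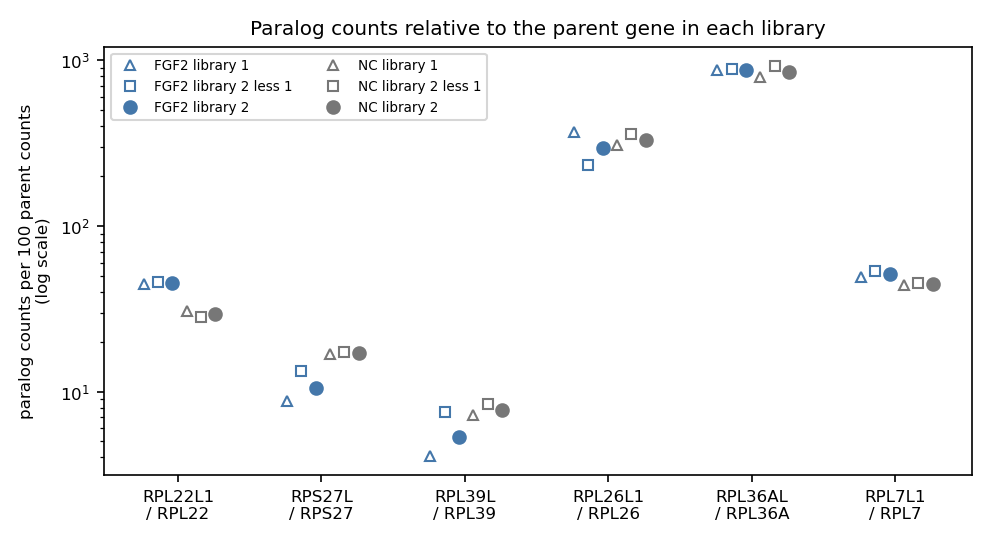
For the 6 paralogs that passed the count filter, points give the paralog's counts per 100 counts of its parent gene (log axis) in each library and in the reads of library 2 that are not in library 1. RPL22L1 is higher in all FGF2 points than in all NC points, RPS27L is lower in all of them, and the RPL39L, RPL26L1 and RPL36AL ratios of the groups overlap.

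As a share of all reads, the canonical genes took 5.74% of the counts in FGF2 library 1 and 5.49% in library 2, and 5.06% and 5.02% in NC libraries 1 and 2. In the remaining reads the share was 5.24% for FGF2 and 4.98% for NC. The FGF2 shares were higher than the NC shares in each pair, by 0.465 percentage points in library 2, 0.680 in library 1 and 0.252 in the remaining reads. The exact binomial (Clopper-Pearson) 95% interval was 5.479% to 5.496% in FGF2 library 2 and 5.014% to 5.031% in NC library 2, so that counting error is small beside the spread between read sets. The 6 paralogs together took 0.0231% in FGF2 library 2 and 0.0227% in NC library 2.

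**Figure D5:**
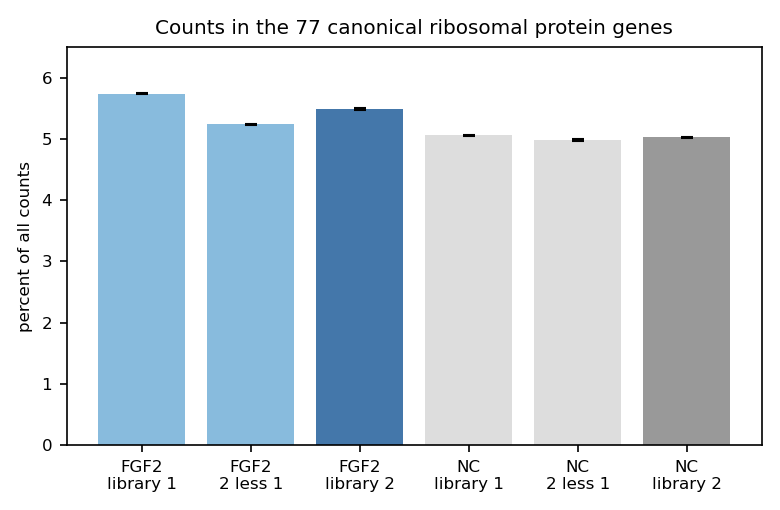
Bars give the percent of all counts that fall in the 77 canonical genes, for each library and for library 2 less library 1, with exact 95% counting intervals. FGF2 bars run from 5.24% to 5.74% and NC bars from 4.98% to 5.06%.

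Few of the counted reads were assigned to annotated pseudogenes of the canonical genes. The tables name 1132, of which 222 had counts in NC library 2. Their counts summed to 6403 and 11931 with FGF2 and 6601 and 11457 in the NC libraries, or 0.788% and 0.835% of the canonical counts in library 2. Single genes stood apart: pseudogenes of RPS10 held 98 counts in NC library 2 beside 112 in RPS10, and those of RPL17 held 16 beside 36.

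The ribosomal protein genes of other names were close to the canonical median. FAU, which encodes a ubiquitin-like protein fused to RPS30, and RACK1, a signalling scaffold on the small subunit, both had a log2 fold change of 0.26. For FAU this was 0.44 from library 1 and 0.06 from the remaining reads, and the read sets of the groups overlapped. For RACK1 the values were 0.29 and 0.23, with the read sets apart. Neither was called. Among 18 non-ribosomal genes listed as TOP mRNAs from general knowledge, 12 had a promoter entry and 10 of those held a run under the search rule. Of the 18, 17 passed the filter (EEF1G was listed at 0 in all 4 libraries), 7 (41.2%) were called higher and 0 lower, with a median of 0.29, where 12.1% of all genes were called higher and 16.3% lower. Among genes averaging 1000 counts or more, 16.8% were called higher and 7.78% lower, with a median of 0.10. The list was chosen with earlier results of these data known. The highest were VIM, an intermediate filament gene, at 0.69, the nucleolar protein gene NPM1 at 0.59 and EIF3E, of initiation factor 3, at 0.38. NPM1 had 34966 and 71104 counts with FGF2 and 24989 and 49500 in the NC libraries. The lowest were EIF3F at 0.01 and NAP1L1, a histone chaperone, at 0.17. In this list the read sets gave like medians, 0.30 from library 1 and 0.29 from the remaining reads, whereas those of the canonical genes were 0.31 and 0.16.

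Of 14 genes for chaperones and importers that escort ribosomal proteins to the nucleolus or into particles, 7 (50%) were called higher and 0 lower, with a median of 0.35, beside the same 12.1% and 16.3% of all genes. Among genes averaging 1000 counts or more the rates were 16.8% and 7.78%, though some genes of this list had fewer counts. This list, too, was chosen with earlier results known. The highest were PRMT3, an arginine methyltransferase of RPS2, at 0.67, PDCD2L, a relative of the RPS2 chaperone PDCD2, at 0.64 and BCCIP, which binds RPL23, at 0.61. PRMT3 had 922 and 1910 counts with FGF2 and 615 and 1260 in the NC libraries. The lowest were the importin gene IPO9 at -0.10 and HEATR3, which imports RPL5, at -0.04. Of 10 genes that regulate TOP mRNA translation, 2 (20.0%) were called higher and 1 (10.0%) lower, with a median of 0.16. With 10 genes, these shares lie near the 12.1% and 16.3% of all genes. EIF4EBP1 was at 0.39 and its relative EIF4EBP2 at -0.33 on the log2 scale, and LARP4, which binds poly(A) tails, at 0.34. EIF4EBP2 had 1870 and 3909 counts with FGF2 and 2632 and 5159 in the NC libraries. CNBP, which binds TOP mRNAs, was at 0.28, and LARP1B was at -0.15, the second lowest.

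The label of an epithelial cell line was checked against marker genes. The keratin genes KRT8 and KRT18 had 50829 and 16967 counts in NC library 2 and 36193 and 17683 in FGF2 library 2. By contrast, EPCAM had 82 and 36 and CDH1 had 20 and 4 in NC and FGF2 library 2, so these 2 defining epithelial markers were near 0. CLDN4 was also low, with 84 counts in NC library 2 and 60 in FGF2 library 2. KRT19 went the other way from KRT8, with 1562 and 3067 counts with FGF2 and 836 and 1742 in the NC libraries, and was called higher at a log2 fold change of 0.89. The summed FPKM of the 6 epithelial markers was 438.3 to 444.3 with FGF2 and 485.5 to 492.5 in the NC libraries. Of 8 fibroblast markers, COL1A2 and FAP were at 0 in all 4 libraries, while COL1A1 had 16110 counts in FGF2 library 2 and 27847 in NC library 2. COL3A1 had 6 counts in FGF2 library 2 and 137 in NC library 2, and both collagen genes were called lower. The summed FPKM of the fibroblast list, nearly all of it COL1A1, was 59.5 to 60.1 with FGF2 and 101.7 to 104.7 in the NC libraries. Endothelial markers summed to at most 0.361 FPKM and 4 of 5 blood and immune markers were at 0 in every library. The part of these differences in the ribosomal protein values was not tested.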

How the data were processed

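Polyadenylated RNA of AGS cells was sequenced in 4 libraries, 2 for each of the groups FGF2 and NC. Reads were aligned to GRCh38 with HISAT2 and counted with HTSeq 0.13.5, per the submitters' processing notes. The counts per gene were deposited by the authors without normalization. The FPKM values were deposited by the authors beside them and match the merged exon length of each gene. Gene models were those of GENCODE release 29 (all 51103 deposited gene IDs matched), and the preparation kit does not mark strand, so reads of overlapping genes cannot be told apart.

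From the counts, library 1 of each group was found to be contained in library 2, so each group was counted as 1 sample and no test was run, where a quasi-likelihood test had been planned for separate libraries. Genes passing edgeR 4.0.16 filterByExpr (15030) were scaled by TMM. Fold changes are log2 ratios after adding 0.5 to each count, with exact binomial 95% intervals for counting error only. Without molecular identifiers, reads are not independent molecules and the intervals are too narrow. Alternatives were total-count, upper-quartile and DESeq2 1.42.0 scaling, no filter, an added count of 5, fold bounds of 1.1 and 1.5, single read sets, and leaving out genes with shared sequence. Scripts were tested on simulated data. Overlap was computed from GENCODE exons, words of 100 bases from its transcripts, and start sites from the RefSeq promoter table with Python 3.11.15 and Biopython 1.88.

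Members and gene lists were chosen with earlier results of these data known. The genes named with values are all paralogs and their parents, canonical genes called higher or lower, the 5 highest and lowest by fold change and by FPKM, RPL5, RPL11, RPS6, the stalk genes, FAU and RACK1. Some genes that this rule takes in are counted in the totals but not reported here. From each list the 3 highest and 2 lowest with a mean of at least 50 counts are named. Of the genes with split results, RPL39 and RPS27 are parents. RPS23 and RPS7 were added to show values beside the bound.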

Additional observations from a re-analysis of the deposited data

How the results depend on the processing

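No paired analysis was possible because library 1 of each group is contained in library 2 and the results come from no test. The 8 canonical genes called higher became 3 with total-count scaling, 4 with upper-quartile scaling, 26 with the mean of both deposited libraries, 30 at a bound of 1.1-fold and 1 at 1.5-fold. They became 3 among genes with under 10% shared exon sequence and 4 among those with under 10% of words elsewhere, a choice added after seeing the data, where fewer genes were counted. From single read sets the count ran from 17 to 54, since no second read set had to meet the bound. The count called lower was 0 to 1 in those read sets, the 1 being RPS10. Their canonical median ran from 0.16 to 0.31 and their difference in share of counts from 0.252 to 0.680 percentage points. For the paralogs, 2 were called higher from either single read set and 1 to 2 lower. The number called lower was 2 with total-count scaling, 2 with no filter, 2 at 1.1-fold and 0 at 1.5-fold. The paralog median of 0.07 was -0.094 with no filter, which adds RPL3L with at most 12 counts, and ran from -0.02 to 0.16 in single read sets. DESeq2 scaling called the same 8 canonical genes. RPL17, RPL23A, RPL34, RPL22L1 and RPL7L1 were called higher, and RPS27L lower, under all 4 scalings. With 1 sample per group, variation between cultures is unknown, and at the counts of RPL17, RPS10 and RPL3L differences of ordinary size were not detectable.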
